A study of Mus musculus with 8 samples.

Results

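The genes of the Bcl2 family decide, in most cells, whether the outer membrane of the mitochondrion stays intact. Here 10 of them were followed in cultured mast cells, as the rows of the count tables whose symbol is *Bcl2*, *Bcl2l1*, *Mcl1*, *Bcl2a1b*, *Bcl2a1d*, *Bax*, *Bak1*, *Bcl2l11*, *Bbc3* or *Pmaip1*. All 10 symbols were among the 24059 listed. The samples were bone marrow–derived mast cells (BMMCs), grown with IL-3 from the marrow of C57BL/6 mice (young adults by the study's methods). Cells were electroporated with Cas9 ribonucleoproteins (RNPs) that carried several crRNAs against *Zc3h12a*, the gene of Regnase-1 (labelled *Zc3h12a* KO), or a scrambled, non-targeting crRNA (labelled *Zc3h12a* WT), and were kept for 1 wk before RNA was taken. Each group had 4 samples, numbered 1 to 4, which the study's design ties to 4 mice, so that samples of a number were treated as a pair. The edited cells were a transfected population, not clones, and the cells were not stimulated.

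In background terms, the family has 3 branches. BCL2, BCL-XL (from *Bcl2l1*), MCL1 and the A1 proteins (from *Bcl2a1b* and *Bcl2a1d*) keep cells alive by holding the death proteins in check. BAX and BAK (from *Bax* and *Bak1*) are the effectors that form pores in the outer mitochondrial membrane and let cytochrome c escape. BIM (from *Bcl2l11*), PUMA (from *Bbc3*) and NOXA (from *Pmaip1*) are BH3-only proteins, which sense stress and either block the survival proteins or activate the effectors. In mast cells, whose survival depends on IL-3 and stem cell factor, loss of the growth factor is known to engage BIM and PUMA, and A1 is known to be induced on activation through the IgE receptor.

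The short BH3 motif joins the branches, and its coding letters are shown to let the members be compared. The in-frame pattern of a leucine, any 3 residues, a glycine or alanine and an aspartate was searched in the coding sequence of each member's canonical transcript (GENCODE, GRCm39). It was found once in each of 7 members, in 2 places in *Pmaip1* (not shown) and 0 times in *Bcl2a1b* and *Bcl2a1d*. Of 8755 genes with coding sequences of like length, 11.9% held a match, so that a match alone is a description. The codons of the leucine and the aspartate are in capitals.
*Bcl2*, chr1:106640308-106640337, minus strand: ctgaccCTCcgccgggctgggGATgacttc
*Bcl2l1*, chr2:152671620-152671649, minus strand: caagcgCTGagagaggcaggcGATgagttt
*Mcl1*, chr3:95566741-95566770, plus strand: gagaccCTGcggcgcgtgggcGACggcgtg
*Bax*, chr7:45115424-45115453, minus strand: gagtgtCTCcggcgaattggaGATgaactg
*Bak1*, chr17:27241508-27241537, minus strand: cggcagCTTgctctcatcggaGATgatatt
*Bcl2l11*, chr2:127989064-127989093, plus strand: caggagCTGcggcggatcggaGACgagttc
*Bbc3*, chr7:16047692-16047721, plus strand: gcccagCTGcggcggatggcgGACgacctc

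The A1 genes had almost no counts. *Bcl2a1b* (chromosome 9, 89081262 to 89089889, plus strand, GRCm39) had 1 read in scrambled RNP replicate 3 and 0 in the other 7 samples. *Bcl2a1d* (chromosome 9, 88605338 to 88613967, minus strand) had 1 read in scrambled RNP replicate 2, 1 in *Zc3h12a* RNP replicate 3 and 0 elsewhere, and its relative *Bcl2a1c* had at most 1 read in any sample. Neither member could be tested, nor could a sum over the A1 rows. *Bcl2a1a* was not among the symbols listed and was not analysed here.

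These rows hold near-identical copies, as their letters show. Over 516 coding bases *Bcl2a1b* and *Bcl2a1d* differed at 6 (98.8% identical), and each differed from *Bcl2a1a* at 11 and 7. The first 30 coding bases, with the base that differs in capitals, were as follows.
*Bcl2a1b*, chr9:89081413-89081442, plus strand: atgGctgagtacgagttcatgtatatccac
*Bcl2a1d*, chr9:88613743-88613772, minus strand: atgTctgagtacgagttcatgtatatccac

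Windows of 50 bases, the length of a read, were taken from the exons of each member and looked up on both strands of the genome. Of the windows of *Bcl2a1b*, 56.6% occurred elsewhere too, and of *Bcl2a1d* 85.1%. Only 14% and 14.9% of their windows were both single in the genome and clear of exons of other gene models. For the other 8 members at most 0.371% of windows occurred elsewhere. The setting used for reads with several matches is not given in the sources used here, and its part in the counts of 0 and 1 was not tested. How much A1 mRNA the cells held therefore cannot be given from these counts. The windows that were single and clear also gave at most 1 counted read in any sample.

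The remaining 8 members passed edgeR's filter on low counts. The total count per sample was 19610240 to 33986762, and levels are given as CPM after TMM scaling. The first principal component of all 14934 genes tested took 65.7% of the variance and placed scrambled RNP replicate 2 (-121) and replicate 4 (74.7) at its ends, so values without each replicate are given where they change. The targeted gene, *Zc3h12a*, was at 25.0, 38.0, 37.1 and 39.3 CPM in scrambled RNP replicates 1 to 4 and at 26.8, 41.1, 32.2 and 32.6 CPM in *Zc3h12a* RNP replicates 1 to 4. It gave no check of the labels, since small edits at the cut site need not change the mRNA level. All 11 mast cell markers (among them *Kit*, *Fcer1a* and *Cpa3*) were present, with a summed level of 51840 to 62000 CPM after scrambled RNP and 50130 to 53030 CPM after *Zc3h12a* RNP, and 10 of them were lower in edited cells (median log2 fold change -0.10, 0 called). Those at an unadjusted p of at most 0.05 were *Hdc*, which makes histamine (-0.75, unadjusted p = 0.0113), and the tryptase gene *Tpsb2* (-0.28, unadjusted p = 0.00708, edgeR). Both were lower in 4 of 4 pairs. Of all genes tested, 4.05% were lower at that p and 8.54% were lower in all 4 pairs. The part of these marker levels in the members' values was not tested. The 8 macrophage markers summed to 8.95 to 11.3 and 9.45 to 13.0 CPM, the 8 B and T cell markers to 1.30 to 8.14 and 3.57 to 6.79 CPM (*Cd8a* was at 0 in every sample), and the 3 neutrophil markers listed to at most 0.333 CPM. The 6 basophil markers summed to 660.5 to 1372 and 569 to 1360 CPM, of which *Mcpt8*, the marker most particular to basophils, made up 1.43 to 8.51 CPM. Fewer cells of a kind and less RNA per cell cannot be told apart in these bulk samples.

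Levels between genes were compared per kilobase of annotated exon. *Mcl1* was the most abundant member, at 145.8 ± 28.5 CPM per kilobase (SD over 8 samples). *Bak1* followed at 71.9 ± 14.5, *Bax* at 52.6 ± 10.4 and *Bcl2* at 43.1 ± 8.91 CPM per kilobase. *Bcl2l1* stood at 15.9 ± 6.18 CPM per kilobase.

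The BH3-only members were the lowest. *Bbc3* was at 7.54 ± 2.59 CPM per kilobase, *Pmaip1* at 5.90 ± 1.85 and *Bcl2l11* at 1.13 ± 0.385. On this scale *Mcl1* was above 98.6% of the genes tested, whereas *Bcl2l11* was above 37.1% of them.

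Some neighbours in this order did not differ beyond their spread. *Mcl1* was above *Bak1*, *Bcl2* above *Bcl2l1* and *Pmaip1* above *Bcl2l11* in 8 of 8 samples with no overlap of ranges. *Bak1* was above *Bax*, and *Bcl2l1* above *Bbc3*, in 8 of 8 samples but with overlapping ranges, while *Bax* was above *Bcl2* in 6 and *Bbc3* above *Pmaip1* in 5 of 8 samples. With the length of the canonical transcript in place of all exons, a choice made after seeing the data, *Bax* was at 100.1 CPM per kilobase and above *Bak1* (72.5) in 7 of 8 samples, so the order of the effectors rests on the gene model. The other members kept their places, but *Bcl2l1* (25.0), *Bbc3* (13.5) and *Bcl2l11* (2.26 CPM per kilobase) stood over 1.5 times higher than with all exons.

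**Figure D1:**
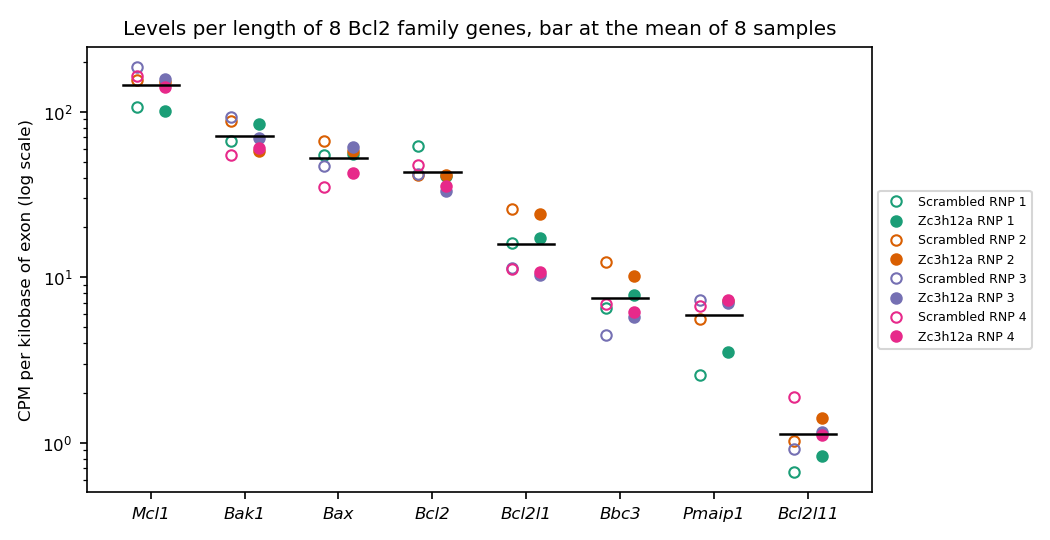
Level of 8 Bcl2 family genes per kilobase of annotated exon on a log axis, with open circles for scrambled RNP samples, filled circles for *Zc3h12a* RNP samples, colors for replicate numbers and a bar at the mean of 8 samples. *Mcl1* lies highest at a mean of 145.8 and *Bcl2l11* lowest at 1.13 CPM per kilobase.

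Levels were also summed by branch over the members followed here, with the A1 rows at almost no counts. *Bcl2l2*, *Bid* and *Bad*, given below, are outside these sums. The survival members stood at 218 ± 22.7 CPM per kilobase in scrambled RNP cells and 191.6 ± 24.6 in edited cells (SD, n = 4 each). The effectors were at 126 ± 27.7 and 123 ± 16.4, and the BH3-only members at 14.3 ± 4.01 and 14.9 ± 2.76 CPM per kilobase. With canonical lengths the 3 sums were 240.4 and 211, 173 and 172, and 21.4 and 21.9 CPM per kilobase. *Mcl1* made up 57.9 to 78.5% of the survival sum in a sample, *Bcl2* 16.3 to 33.5% and *Bcl2l1* 4.77 to 11.6%. The groups overlapped in each of the 3 sums.

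The comparison of *Zc3h12a* RNP with scrambled RNP asks whether the mRNAs that set the threshold for mitochondrial death differed in cells edited for Regnase-1. A call needed a change of over 0.5 on the log2 scale together with an adjusted p (Benjamini-Hochberg, all genes) of at most 0.05. In the edgeR quasi-likelihood fit, blocked on replicate number, 0 of 8 members were called, where 0% of all 14934 genes tested were. At an unadjusted p of at most 0.05, 1 of 8 members was found, *Bcl2*, against 6.17% of all genes (4.05% lower and 2.12% higher) and 10.2% of the 8072 genes at or above the mean level of the lowest member. DESeq2 and limma-trend with the same block gave 0 calls and 1 member at an unadjusted p of at most 0.05 as well. Without replicate 1 there were 0 such members (1.64% of all genes), and without replicate 4 there were 2 (5.5%). Among members 4 were higher and 4 lower, with a median log2 fold change of -0.0041 against 0.038 for all genes tested. Of the 8 members, 2 were lower in all 4 pairs (8.54% of all genes were) and 0 were higher in all 4 (4.98%).

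*Bcl2*, which lies on chromosome 1 (106465908 to 106642060, minus strand) and encodes the founding survival protein, had the lowest p. Scrambled RNP replicates 1 to 4 had 573.5, 384, 386 and 438 CPM. *Zc3h12a* RNP replicates 1 to 4 had 376, 383, 304.5 and 328 CPM. The groups did not overlap, since the highest edited sample lay just under the lowest scrambled one (0.663% of all genes had groups apart in this direction and 0.261% in the other). The differences in pairs 1 to 4 were -0.61, -0.0067, -0.34 and -0.42 on the log2 scale, so that pair 2 hardly differed. The fitted log2 fold change was -0.34 (standard error 0.11, 95% interval -0.60 to -0.092), from 445.5 ± 89.0 to 348 ± 37.8 CPM (SD, n = 4). The unadjusted p was 0.0140 and the adjusted p 0.660 (edgeR), so that *Bcl2* was not called. Without replicate 1 the log2 fold change was -0.21 (unadjusted p = 0.229), and with no replicate block it was -0.36 (unadjusted p = 0.0610).

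*Mcl1* (chromosome 3, 95566026 to 95570487, plus strand) encodes a short-lived survival protein. It had 375.5, 545, 649 and 572 CPM in scrambled RNP replicates 1 to 4 and 354, 529, 554.5 and 492 CPM in *Zc3h12a* RNP replicates 1 to 4. Every pair was lower, by small steps of -0.084, -0.042, -0.23 and -0.22, while the groups overlapped, and both samples of replicate 1 were far below the others. The fitted log2 fold change of -0.14 had a 95% interval of -0.33 to 0.040 and an unadjusted p of 0.109 (edgeR).

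*Bcl2l1* (chromosome 2, 152622582 to 152673655, minus strand), a survival gene that STAT5 is known to induce, had 82.6, 134, 58.6 and 57.9 CPM in scrambled RNP replicates 1 to 4. The edited samples had 88.6, 123, 53.3 and 55.6 CPM. Members of a pair were much alike and the pairs far apart. Its log2 fold change was -0.052 with a 95% interval of -0.24 to 0.13, which was the narrowest but for that of *Mcl1* among the members, and without replicate 2 it was 0.031.

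**Figure D2:**
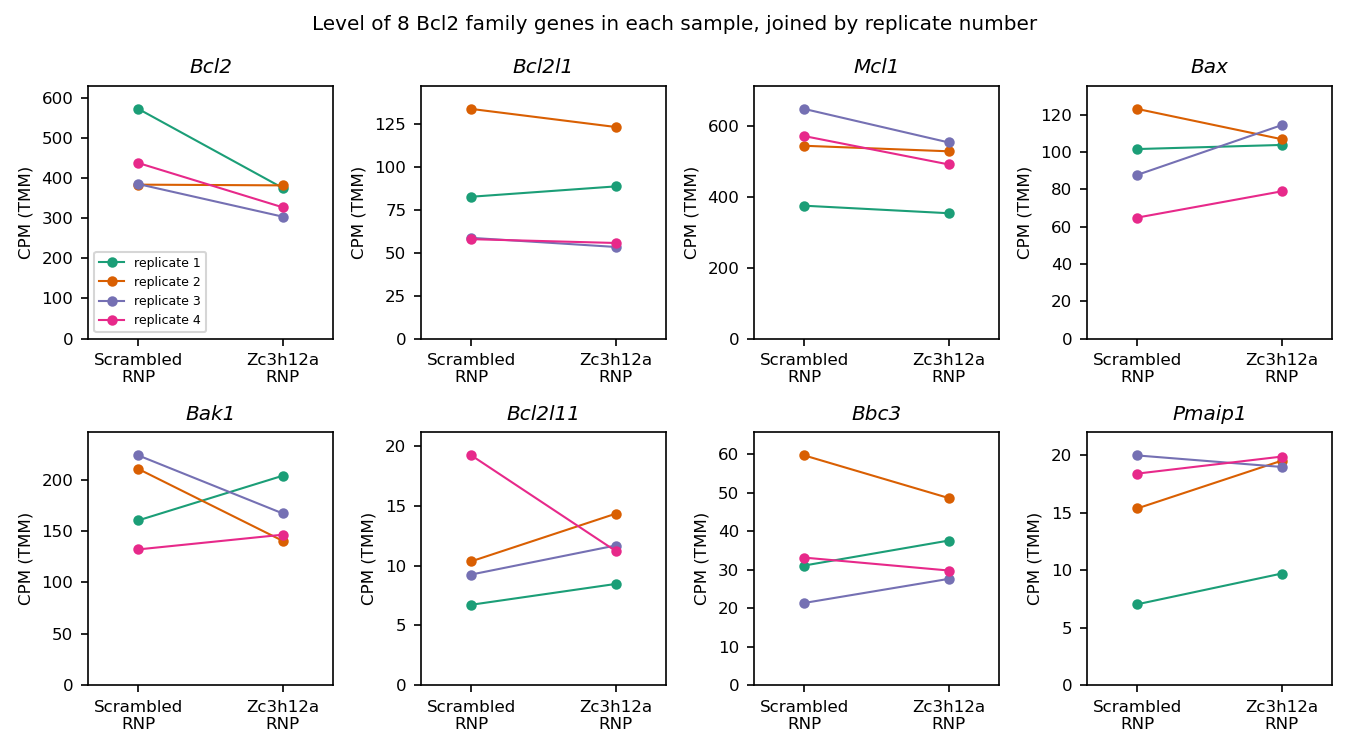
Level of 8 Bcl2 family genes in CPM (linear axes from 0) in scrambled RNP and *Zc3h12a* RNP samples, with a line and color for each replicate number. The *Bcl2* lines run downward or level, from 384 to 573.5 CPM on the left to 304.5 to 383 CPM on the right, whereas the lines of *Bcl2l1* stay nearly level at different heights.

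Of the effectors, *Bax* (chromosome 7, 45111015 to 45116325, minus strand) had 102, 123, 87.8 and 64.9 CPM in scrambled RNP replicates 1 to 4 and 104, 106.9, 114 and 78.9 CPM in *Zc3h12a* RNP replicates 1 to 4. Pair 2 was lower and the other 3 pairs were higher. The log2 fold change was 0.12 (95% interval -0.13 to 0.38, unadjusted p = 0.299, edgeR), and without replicate 3 it was -0.017.

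*Bak1* (chromosome 17, 27238784 to 27247983, minus strand) was at 160, 210, 224 and 132 CPM in scrambled RNP replicates 1 to 4 and at 204, 140.5, 167 and 146 CPM in *Zc3h12a* RNP replicates 1 to 4. Its pairs disagreed, with 0.34 and 0.15 in pairs 1 and 4 against -0.58 and -0.42 in pairs 2 and 3. The log2 fold change of -0.13 had a 95% interval of -0.50 to 0.24, and it was 0.087 without replicate 2. Exons of *Bak1* overlap those of *Ggnbp1* on the other strand, but *Ggnbp1* had only 10 to 33 counts in any sample.

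Among the BH3-only members, *Pmaip1* (chromosome 18, 66591604 to 66598636, plus strand), whose product NOXA binds MCL1, had 7.04, 15.4, 20 and 18.4 CPM in scrambled RNP replicates 1 to 4. The edited samples had 9.71, 19.5, 19.0 and 19.9 CPM. It was higher in pairs 1, 2 and 4, and both samples of replicate 1 were the lowest. The log2 fold change was 0.20 (95% interval -0.052 to 0.46, unadjusted p = 0.102, edgeR).

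*Bcl2l11* (chromosome 2, 127967958 to 128004476, plus strand), the gene of BIM, had 6.72, 10.4, 9.25 and 19.2 CPM in scrambled RNP replicates 1 to 4, from 212 to 404 counts. It had 8.46, 14.3, 11.7 and 11.2 CPM in *Zc3h12a* RNP replicates 1 to 4. Pairs 1 to 3 were higher by 0.33, 0.47 and 0.33, while pair 4 was lower by -0.77, as scrambled RNP replicate 4 had the highest level of all samples. This pair decided the fit. With it the log2 fold change was 0.086 (95% interval -0.40 to 0.57), and without it 0.38 (edgeR, unadjusted p = 0.0184, adjusted p = 0.745). Without replicate 3 it was -0.050.

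*Bbc3* (chromosome 7, 16042318 to 16052130, plus strand), the gene of PUMA and a p53 target, had 31.1, 59.7, 21.3 and 33.1 CPM in scrambled RNP replicates 1 to 4 and 37.5, 48.6, 27.6 and 29.8 CPM in *Zc3h12a* RNP replicates 1 to 4. The pairs split, with 2 higher and 2 lower. The log2 fold change was 0.044 with a 95% interval of -0.25 to 0.34, -0.11 without replicate 3 and -0.018 with no replicate block.

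The intervals bound what the data leave possible. For 6 of 8 members the 95% interval lay within 0.5 in either direction on the log2 scale, and for *Bcl2* and *Bcl2l11* it did not. *Bak1* is among the 6 by a narrow margin, with its lower end at -0.4976. A p above the threshold does not show that a member was the same in both groups.

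**Figure D3:**
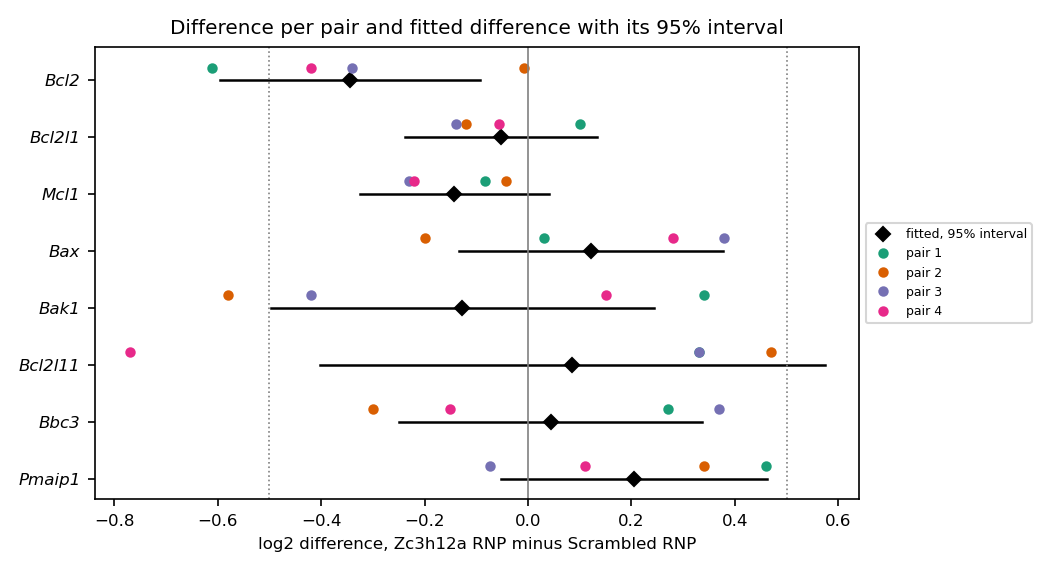
Log2 difference of 8 Bcl2 family genes, *Zc3h12a* RNP minus scrambled RNP, with colored points for the 4 pairs, a diamond for the fitted value and a line for its 95% interval (dotted lines at 0.5 in either direction). The interval of *Bcl2*, from -0.60 to -0.092, is the only one clear of 0, and *Bcl2l11* has 3 pairs on one side and pair 4 at -0.77 on the other.

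Members also varied between replicates. In the same edgeR fit, 4 of 8 members had an adjusted p at or under 0.05 for the 3 replicate terms together, against 28% of all genes tested and 46.4% of the genes at or above the mean level of the lowest member, so that the share of members was near that of genes of like level. These were *Bcl2l1* (adjusted p = 0.00184), *Pmaip1* (0.00523), *Bbc3* (0.0120) and *Mcl1* (0.0124, edgeR). *Bax* lay just above the threshold at 0.0517. Without replicate 1, and also without replicate 3, 2 members were found, where the share of all genes tested fell to 9.62% and 9.97%. The labels do not say whether a replicate number also marks a batch of libraries, so mouse, culture and batch cannot be told apart.

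The members did not share a pattern over the replicates. *Bcl2l1* and *Bbc3* were highest in replicate 2, with mean levels of 128 and 54.1 CPM over both of its samples, and lowest in replicate 3, with 56.0 and 24.5 CPM. *Mcl1* and *Pmaip1* were lowest in replicate 1, at 365 and 8.37 CPM, and highest in replicate 3, at 602 and 19.5 CPM. *Bcl2l11* was lowest in replicate 1 too (7.59 CPM) but highest in replicate 4 (15.2 CPM). Across the 8 samples the highest level was 2.86 times the lowest for *Bcl2l11*, 2.84 times for *Pmaip1* and 2.80 times for *Bbc3*, but 1.69 times for *Bak1* and 1.83 times for *Mcl1*.

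**Figure D4:**
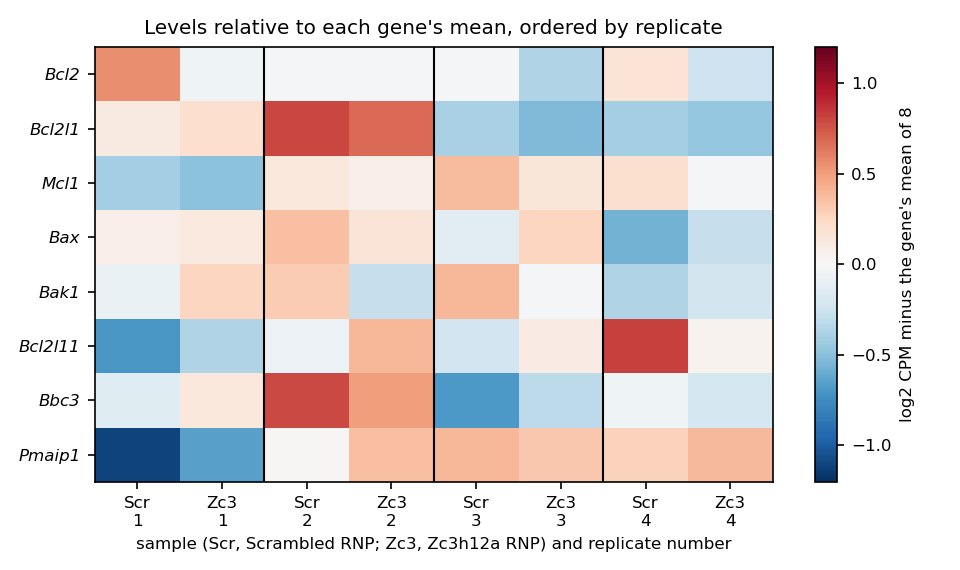
Log2 CPM of 8 Bcl2 family genes minus each gene's mean over 8 samples (color scale from -1.2 to 1.2), with samples ordered by replicate number and the scrambled RNP sample left of the *Zc3h12a* RNP sample. Both samples of replicate 2 are high for *Bcl2l1* and *Bbc3*, and both samples of replicate 1 are low for *Pmaip1* and *Mcl1*.

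Ratios within a sample do not depend on the scaling between samples, and 7 were computed from counts per kilobase. Sums in them cover only the same members as above, with almost no A1 counts. The sum of survival members over that of BH3-only members was 19.1, 11.7, 18.9 and 14.3 in scrambled RNP replicates 1 to 4 and 13.1, 11.6, 14.6 and 12.8 in *Zc3h12a* RNP replicates 1 to 4. It was lower in 4 of 4 pairs, though by only -0.014 on the log2 scale in pair 2, with a mean log2 difference of -0.27 ± 0.24 (SD of 4 pairs). With canonical transcript lengths it was lower in 3 pairs and higher by 0.043 in pair 2, with a mean of -0.26 and an exact p of 0.25. *Mcl1* over *Pmaip1*, a survival protein and its selective antagonist, was 41.8, 27.7, 25.4 and 24.3 in scrambled RNP samples against 28.6, 21.2, 22.8 and 19.4, lower in 4 of 4 pairs with a mean of -0.35 ± 0.16. For both ratios an exact two-sided test over the signs of the 4 pairs gave p = 0.125, the smallest that 4 pairs allow, and 0.4375 when adjusted over the 7 ratios.

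*Bcl2* over *Bax* was 1.14, 0.629, 0.885 and 1.36 in scrambled RNP replicates 1 to 4 and 0.730, 0.721, 0.536 and 0.837 in *Zc3h12a* RNP replicates 1 to 4. It was lower in 3 of 4 pairs and higher in pair 2 by 0.20 on the log2 scale, with a mean log2 difference of -0.47 ± 0.44 (exact sign-flip p = 0.25). The mean log2 difference was -0.23 for *Mcl1* over *Bcl2l11*, -0.19 for *Mcl1* over *Bbc3*, -0.18 for *Bcl2l1* over *Bax* and -0.17 for survival members over effectors, with exact sign-flip p of 0.375 to 0.5. All 7 means were below 0, but the ratios share members, so that they are not 7 separate observations, and with 4 pairs this exact test could not go below 0.125.

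**Figure D5:**
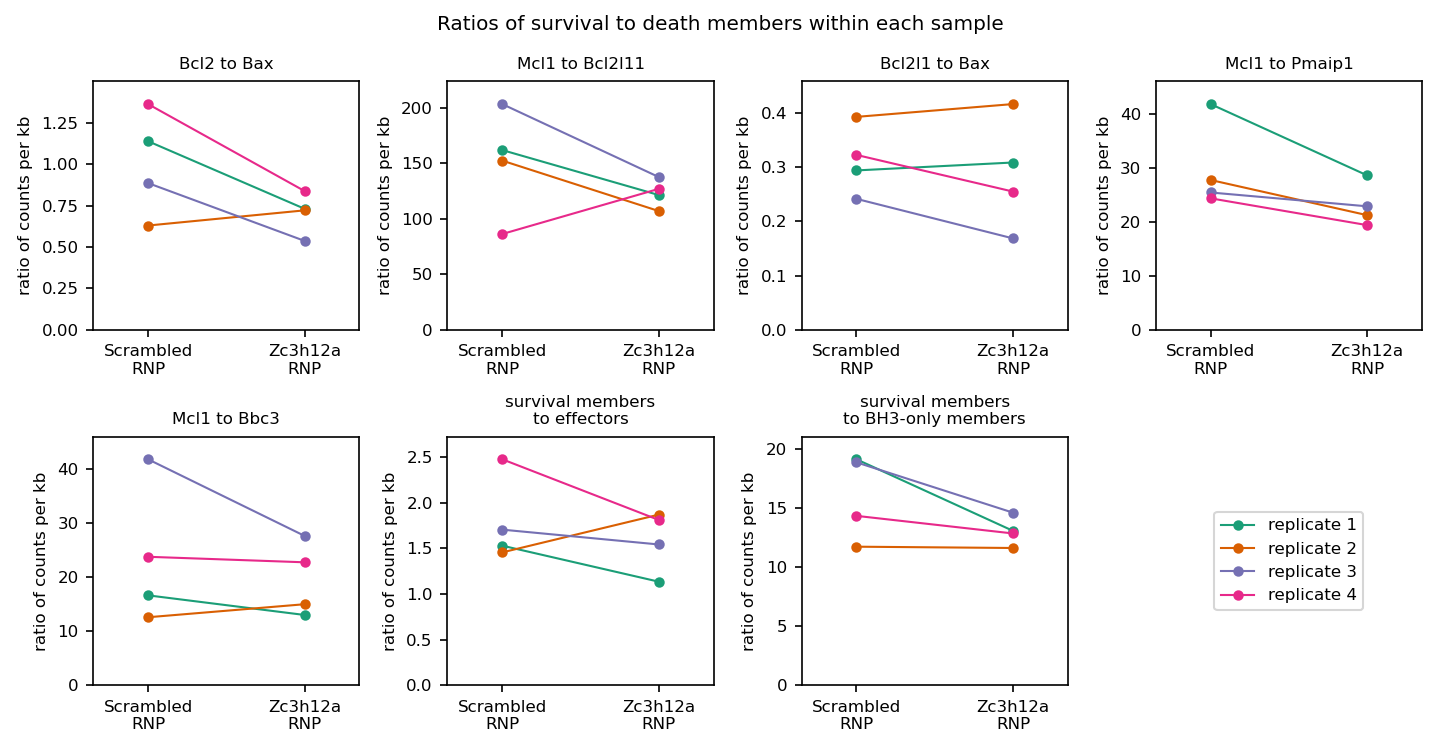
Ratio of survival to death members within each sample, from counts per kilobase on linear axes from 0, with a line and color for each replicate number. The 4 lines of *Mcl1* to *Pmaip1* all run downward, and those of *Bcl2* to *Bax* do so except for replicate 2.

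The wider pathway was read from lists of 80 listed genes, 74 of which were tested. By edgeR 0 of them passed both thresholds, while 7 lower and 2 higher genes reached an unadjusted p of at most 0.05 (9.46% and 2.70%, against 4.05% and 2.12% of all genes). Among the 8072 genes at or above the mean level of the lowest member, 10.2% reached it in either direction. The counts of list genes rest on single replicates, with 1 lower and 1 higher without replicate 1 and 4 lower and 6 higher without replicate 2. With no replicate block they were 1 and 0, and with upper quartile normalization 7 and 7. DESeq2 called 2, *Tnf* and *Tnfaip3*, where 0.251% of all genes were called. The same 2 were called by edgeR with no low-count filter (0.170% of all genes) and after removal of the replicate effect (0.647%). Without replicate 2, edgeR called 3 (*Bnip3*, *Tnf* and *Tnfaip3*), where 0.908% of all genes were called. Limma-trend called 0, as did each of the other alternatives. Between replicates 47.3% of the 74 genes were called, a share like that of the members.

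In the reported fit, other Bcl2 family genes showed no call. The survival gene *Bcl2l2* was at 97.1 ± 18.1 CPM in scrambled RNP and 85.9 ± 9.33 CPM in *Zc3h12a* RNP samples (SD, n = 4). Of 5 tested BH3-only genes outside the 10 members, 3 were higher and 2 lower. *Bid*, which caspase-8 cleaves to reach the mitochondrion, had 35.1 ± 7.99 and 41.2 ± 12.0 CPM a difference of 0.21 on the log2 scale (edgeR, standard error 0.095, unadjusted p = 0.0625), and *Bad* had 36.6 ± 3.03 and 34.1 ± 6.12 CPM. The pore-forming relative *Bok* had at most 2 counts in a sample. Among 5 tested divergent relatives, *Bcl2l13* was higher in 4 of 4 pairs, as were 4.98% of all genes (log2 fold change 0.13, edgeR, unadjusted p = 0.127). *Bnip3l* had -0.19. *Bnip3* had -0.64 (edgeR, unadjusted p = 0.136), with pairs 1 to 4 at -0.55, -0.16, 0.43 and -2.24. Its scrambled RNP replicate 4 was at 86.4 CPM, against 14.3 to 22.35 CPM in the other scrambled samples.

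Downstream of the pore, 6 of 7 genes of cytochrome c, the apoptosome and the caspases were higher, none at an unadjusted p of at most 0.05, with a median log2 fold change of 0.13 against 0.038 for all genes tested. *Casp9*, which the apoptosome activates, was at 50.4 ± 11.8 and 52.4 ± 8.15 CPM. Of 7 inhibitors of apoptosis and their antagonists, 4 were higher and 3 lower. *Birc3*, which encodes the ubiquitin ligase cIAP2, was lower in 4 of 4 pairs, as were 8.54% of all genes. It went from 79.7 ± 21.3 to 60.5 ± 9.24 CPM (log2 fold change -0.37, standard error 0.12, unadjusted p = 0.0137, adjusted p = 0.660, edgeR). The 7 tested genes of the death receptor arm had a median of 0.0050, with *Ripk1* at -0.13 and *Cflar* at -0.080.

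Genes that act on the members from outside were read too. In IL-3 and STAT5 signalling, which is known to support *Bcl2l1* and *Mcl1*, 8 of 10 genes were lower and 5 were lower in all 4 pairs (8.54% of all genes were), with a median log2 fold change of -0.11. Those at an unadjusted p of at most 0.05 were *Pim1* (-0.24), *Pim2* (-0.30) and *Socs2* (-0.23), with adjusted p of 0.686, 0.656 and 0.725 (edgeR). Of all genes, 4.05% were lower at that p. Of genes at or above the mean level of the lowest member, 10.2% reached it in either direction. Without replicate 1 only 1 of the 74 list genes was lower at that p. PIM kinases are known to phosphorylate BAD and so keep it from the survival proteins. The receptor chains *Il3ra* and *Csf2rb* had log2 fold changes of -0.11 and 0.049.

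Of 11 tested genes of p53 and its targets, 8 were higher, with a median of 0.13. *Phlda3*, a p53 target that restrains AKT, was the only one at an unadjusted p of at most 0.05 (log2 fold change 0.30, edgeR, unadjusted p = 0.0262), where 2.12% of all genes were higher. Of the 11, 2 were higher in all 4 pairs (4.98% of all genes were) and 0 were lower in all 4. *Cdkn1a* and *Mdm2*, both among the 3 that were lower, had -0.10 and -0.021. *Bax*, *Bbc3* and *Pmaip1* are given above, and the activity of p53 was not tested. Of 10 NF-κB targets, 7 were lower and 3 higher. *Nfkbia* (-0.49), *Nfkbie* (-0.20), *Tnfaip3* (-0.70) and *Birc3*, which feed back on NF-κB or guard against TNF-driven death, were each lower in 4 of 4 pairs (8.54% of all genes were), while *Tnf* itself had 0.84. All of these reached an unadjusted p of at most 0.05 and none an adjusted p under 0.424 (edgeR). That unadjusted p was reached by 6.17% of all genes and by 10.2% of those at or above the mean level of the lowest member. *Usp9x* and *Huwe1*, which spare and destroy the MCL1 protein, had log2 fold changes of 0.026 and 0.12. Among 7 tested transcription factors of the BH3-only genes, 3 were higher and 4 lower, with *Atf4* at -0.057 and *Jun* at 0.26.

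By the root mean square difference of log2 CPM over 8 samples, each gene centered on its mean, the genes most like *Bcl2* among 9667 were *Nsmaf* (0.086), *Cfap45* (0.096) and *ND6* (0.10), where *Bcl2* itself had an SD of 0.28. Those most like *Bcl2l11* were *Ak1* (0.17), *Stxbp3* (0.18) and *Trpm2* (0.18), at an SD of 0.46 for *Bcl2l11*. This is a description of 8 samples and carries no test.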

How the data were processed

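Poly(A) libraries of 8 samples were sequenced as paired reads by the authors, who, per the labels' processing notes, used FastQC 0.11.9, HISAT2 2.2.1 (GRCm39) and featureCounts 2.0.1. The deposited counts per gene are raw whole numbers. A batch correction named in the study's methods is not in them. Strand and multi-match settings are not given in the sources used here.

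Counts were fitted with edgeR 4.0.16 (R 4.3.3), with TMM, edgeR's low-count filter and a model of replicate number and RNP over all genes, and calls needed over 0.5 on the log2 scale and an adjusted p of at most 0.05. Standard errors were taken as the fold change (log2) divided by the square root of F. Log2 CPM used a prior count of 2. Alternatives were DESeq2 1.42.0, limma-trend (limma 3.58.1), no block, removal of the replicate effect, other normalizations and filters, and leaving out each replicate. Totals were 19610240 to 33986762. The intervals are for the mean fitted difference between the groups, and the difference of a single pair can lie outside them.

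The pairing comes from the study's design of 4 mice. After each group's mean was subtracted, samples of a number correlated at 0.0414 to 0.624 over all genes tested and at 0.717 to 0.756 over 9668 genes with a mean log2 CPM above 2. Samples of unlike numbers correlated at -0.486 to 0.398 and at -0.628 to 0.137. Over all genes tested, scrambled RNP replicates 2 and 4 correlated more with an unlike number (0.398 and 0.350) than with their own (0.0752 and 0.0414). No library looked deposited more than once, since the smallest chi-square between replicates was 53.6 times its degrees of freedom.

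Exon lengths came from GENCODE vM39, with a gene model for 22601 of 24059 symbols. Genes named are the members, the targeted gene, pathway and mast cell marker genes at an unadjusted p at or under 0.05 or else the 2 most abundant of a list, and the 3 genes most like *Bcl2* and *Bcl2l11*. One gene that this rule names is not reported here. *Bok*, *Cdkn1a*, *Mdm2*, *Il3ra*, *Csf2rb*, *Cd8a*, *Bnip3*, *Kit*, *Fcer1a*, *Cpa3*, *Ggnbp1* and the basophil markers (*Mcpt8*, *Cd200r3*, *Cd69*, *Ccl3*, *Prss34* and *Itga2*) were named outside this rule after values were seen. The members and lists were chosen with earlier results of these data known. Figures were drawn with matplotlib 3.10.9.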

Additional observations from a re-analysis of the deposited data

Results flagged for a closer look

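Of 30 groups of 4 samples examined (levels of 8 members and 7 ratios in each RNP group), 1 held a sample far from the other 3, where chance gives 1.5. For *Pmaip1* in *Zc3h12a* RNP samples, replicate 1 lay below the others, with a gap of 0.935 of the group's whole range on the log2 CPM scale. Scrambled RNP replicate 1 was the lowest of its group too.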

How the results depend on the processing

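The number of members past both thresholds was 0 under all 12 alternatives. Over all genes tested, 0 were called in the reported fit, against 7 higher and 52 lower with DESeq2, 9 and 31 with no low-count filter, 25 and 74 after removal of the replicate effect, 80 and 57 without replicate 2, and at most 3 in the other alternatives. The number at an unadjusted p at or under 0.05, 1 in the reported fit, was 0 with no replicate block and 0 with no low-count filter, 3 after removal of the replicate effect (*Bcl2*, *Mcl1* and *Pmaip1*, where 16.9% of all genes reached it) and 0 to 2 when a replicate was left out (0 without replicate 1, 2 without replicate 4). Members that differed between replicates, 4 in the reported fit, were 2 to 5 when a replicate was left out (2 without replicate 1 and 2 without replicate 3). Direction turned when a replicate was left out for *Bcl2l1* (-0.078 to 0.031, above 0 without replicate 2), *Bak1* (-0.24 to 0.087, above 0 without replicate 2), *Bax* (-0.017 to 0.29, below 0 without replicate 3), *Bcl2l11* (-0.050 to 0.38, below 0 without replicate 3), *Bbc3* (-0.11 to 0.22, below 0 without replicate 3) and *Zc3h12a* (-0.075 to 0.0062, above 0 without replicate 4), and with no replicate block for *Bbc3* (-0.018). *Bcl2*, *Mcl1* and *Pmaip1* kept their direction in all 12, with log2 fold changes of -0.40 to -0.21, -0.17 to -0.11 and 0.16 to 0.25, and the adjusted p of *Bcl2* was between 0.0552 and 1. All 7 ratios kept their mean direction; without a replicate, survival over BH3-only members was -0.36 to -0.18 and *Bcl2* over *Bax* -0.69 to -0.38. The block changed no other call, and the causes of these shifts were not tested. No call could be made for the A1 genes at 0 or 1 counts.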
